A study of Mus musculus with 15 samples.

Results

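Footprint levels of 10 acute phase protein genes were followed in ribosome profiling libraries of mouse liver: Saa1, Saa2, Saa4, Hp, Hpx, Orm1, Orm2, Lcn2, Apcs and Itih4. They were chosen by name, as every RefSeq transcript whose gene symbol is on that list. The rule found 10 genes with 13 transcripts, out of 20192 named genes with 28167 transcripts. Itih4 had 4 transcripts and the other genes 1 each, and the transcript with the highest mean count stands for each gene here. Ribosome profiling sequences the short mRNA fragments that ribosomes protect from RNase, so a count reflects both how much mRNA is present and how many ribosomes it carries, and these cannot be told apart here.

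The livers came from wild-type male C57BL/6N mice of 8 to 10 weeks that had lived in a light-dark cycle and were then moved to constant darkness. One day later mice were killed every 4 h, at 7 circadian times (CT) from CT0 to CT24. Every time point had 2 livers, each from a separate mouse, giving 14 libraries of whole liver tissue. No group carried another genotype or received a treatment, so time is the only factor of the design, and no mRNA abundance was measured in these libraries.

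Acute phase proteins are plasma proteins that the liver makes in larger amounts during infection, injury or inflammation. Interleukin-6, acting through STAT3, and interleukin-1 and tumour necrosis factor, acting through NF-kB and C/EBP factors, are the classical signals that raise their transcription in hepatocytes. In mice the serum amyloid A proteins SAA1 and SAA2 are among the most strongly inducible of them, whereas SAA4 is known as the constitutive member of the family, and many of the others are abundant in plasma at all times.

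Total counts ran from 40593197 to 90458783 per library, and the 4 libraries of CT8 and CT12 were the deepest. The 10 genes took 0.316% to 0.779% of the counts. Major urinary protein (Mup) mRNAs took 42.1% to 70.7%, and levels are therefore given as CPM (counts relative to library size) with library sizes scaled by TMM, which is less affected by a few dominant transcripts than the total count. The hepatocyte markers summed to between 37149 and 51399 CPM in every library. All counts above 0 in CT16 replicate 2 were even (100%), and per the labels its file also holds a second sequencing run. In CT20 replicate 2, 11 markers of pancreatic acinar cells summed to 3836 CPM, against 2.54 to 74.9 CPM in the other libraries. Most of these markers were higher in replicate 2 than in replicate 1 at every time but CT16, and all 11 were at CT12, CT20 and CT24. With 2 livers at a time point, edgeR's p-values for time as a factor rest on the spread within 7 pairs. For each transcript edgeR draws that spread towards the spread of the others, so it is not the gene's own alone. Its p-values for a 24 h cosine rest on the spread of the 14 libraries around the fitted curve. A change in the number of hepatocytes and a change in footprints per hepatocyte cannot be distinguished in whole tissue.

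Saa1 and Saa2 are near copies, which bears on how far their counts can be separated. In RefSeq (GRCm38.p6) Saa1 lies on chromosome 7 at 46740497 to 46742980 on the minus strand, Saa2 at 46751833 to 46754313 on the plus strand, and Saa4 at 46727992 to 46732603 on the minus strand. The coding sequences of Saa1 and Saa2, each of 369 bases, were identical at 351 positions (95.1%). Of the coding windows of 28 bases that lie in a single exon, about the length of a footprint, 49.7% in Saa1 and 55.2% in Saa2 occurred once in the genome. The other windows had up to 3 sites. Orm1 and Orm2 were identical at 89.9% of 624 coding positions, with 80.3% and 70.8% of such windows occurring once. In Saa4, Hp, Hpx, Lcn2, Apcs and Itih4 every one of these windows occurred once. The coding windows in which the copies differ most are shown here, with the bases that differ between the 2 copies of a pair in capitals. All 4 windows occur once in the genome and can tell the copies apart.
Saa1, chr7:46741337-46741364, minus strand: acatgaaggaagctAActggaaaAaCTC
Saa2, chr7:46753448-46753475, plus strand: acatgaaggaagctGGctggaaaGaTGG
Orm1, chr4:63345089-63345116, plus strand: catGggtgcAgctTtcAGaaaAcTCgaG
Orm2, chr4:63362964-63362991, plus strand: catTggtgcGgctGtcCTaaaCcCTgaT

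Per length of coding sequence, the 10 genes spanned a wide range of ribosome occupancy. In median CDS RPKM (CPM, with the TMM library size, for each kilobase of coding sequence), Hpx, the plasma carrier of free heme, stood highest at 1682. It was followed by Hp at 1104, Orm1 at 443, Itih4 at 229, Saa4 at 146, Saa1 at 53.8, Apcs at 30.7, Saa2 at 21.7, Orm2 at 9.06 and Lcn2 at 3.54. Most neighbours in this order kept it: the higher gene lay above the next in 14 of 14 libraries for Hpx, Hp, Orm1 and Saa1, and in 13 for Itih4 and Saa2. Saa4 lay above Saa1 in 12 libraries and Orm2 above Lcn2 in 12, while Apcs lay above Saa2 in 10, so the spread of those 2 levels overlapped. By mean RPKM, Hpx ranked 34th and Lcn2 3976th among 15307 genes with reads. For Saa1 and Saa2 the mean, 96.1 and 49.3, was well above the median. These levels use the full coding length. Only 49.7% of the single-exon windows of Saa1, 55.2% of Saa2, 80.3% of Orm1 and 70.8% of Orm2 occur once in the genome. Whether this lowers their levels or moves their places in the order was not tested.

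A pair of libraries stood above the rest. The level of Saa1 was 18.8 and 11.6 CPM in the livers of CT0, 20.3 and 20.5 at CT4, 17.8 and 124 at CT8, 148 and 25.2 at CT12, 22.3 and 24.5 at CT16, 19.9 and 16.1 at CT20, and 22.7 and 16.6 at CT24, giving replicate 1 and then replicate 2. Replicate 2 of CT8 and replicate 1 of CT12 were high. The other liver of CT8 lay among those of the other times, and the other liver of CT12, at 25.2, lay just above the highest of them, 24.5. The higher liver exceeded the lower 6.96-fold at CT8 and 5.88-fold at CT12.

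Saa2 showed the same livers apart. It stood at 8.59 and 4.86 CPM at CT0, 6.85 and 8.68 at CT4, 7.33 and 62.3 at CT8, 103 and 9.44 at CT12, 8.83 and 7.47 at CT16, 7.59 and 6.37 at CT20, and 11.3 and 6.66 at CT24. The livers of a pair differed 8.49-fold at CT8 and 10.9-fold at CT12, and the 12 libraries without those high values spanned 4.86 to 11.3 CPM. The ratio of Saa1 to Saa2 counts was 1.99 in CT8 replicate 2 and 1.43 in CT12 replicate 1, the latter the lowest of the 14, while its median was 2.46 and its highest value 3.29, in CT16 replicate 2. Many footprints of these 2 genes have more than 1 possible origin. The study's methods name reads with a unique location, and whether the counts of these genes share reads was not tested.

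**Figure D1:**
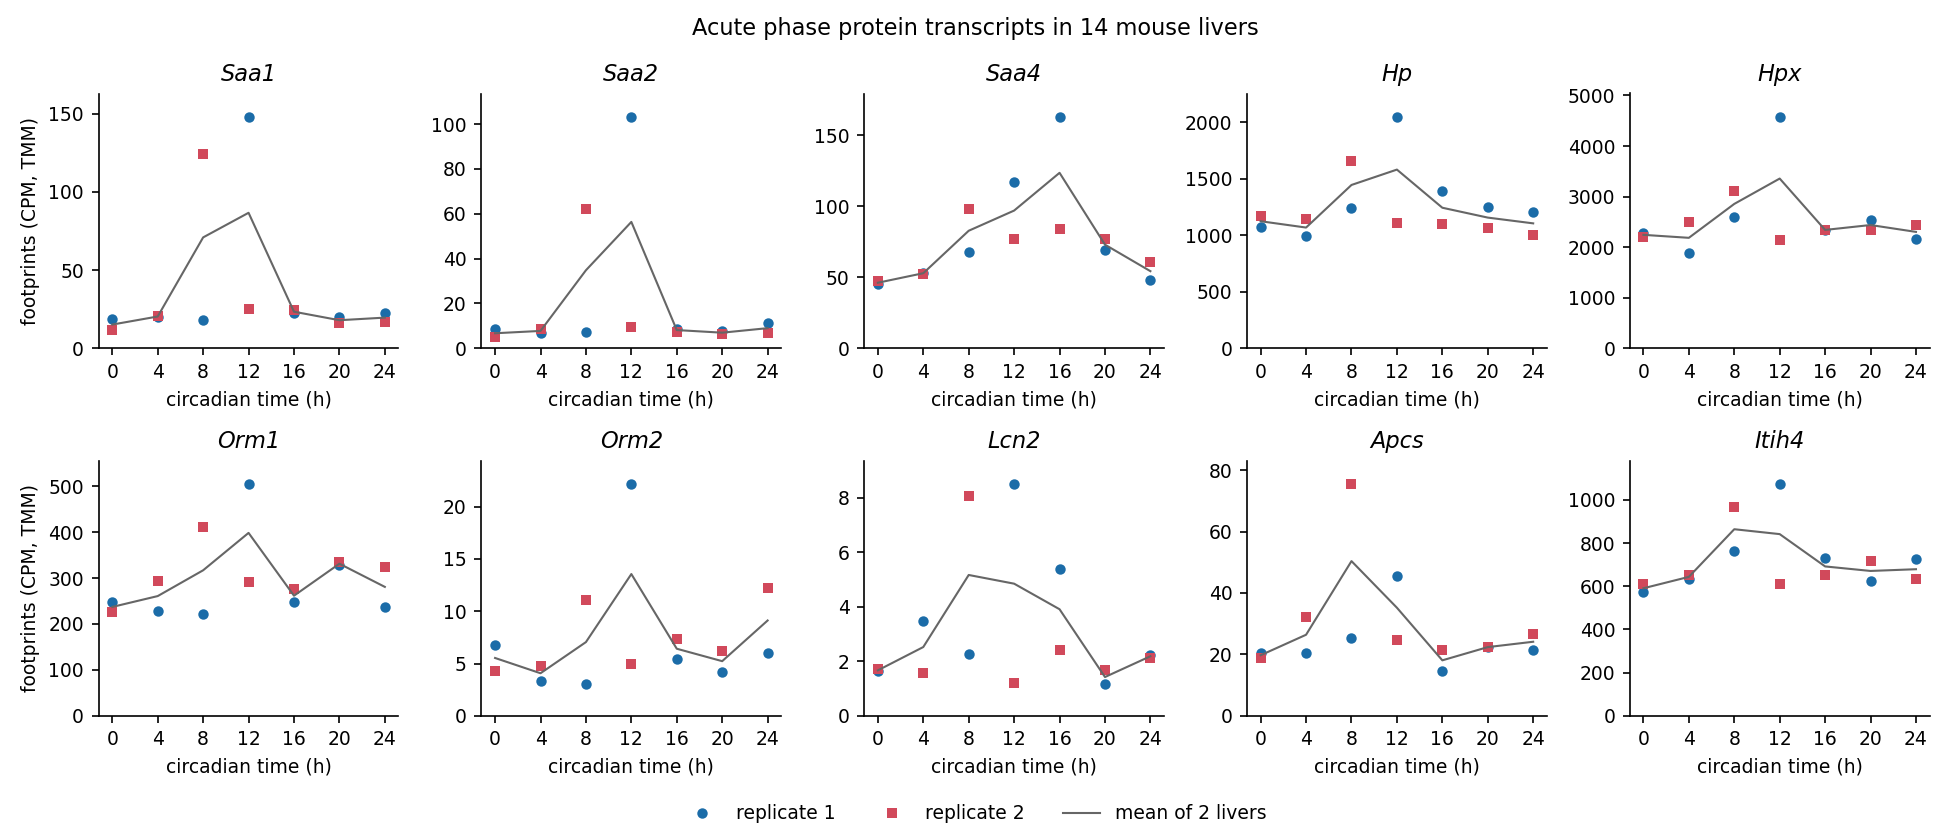
Footprint level of each of the 10 genes (CPM with TMM library sizes, linear axis from 0) against circadian time in h. Circles are replicate 1, squares replicate 2 and the line joins the means of the 2 livers. For Saa1 and Saa2, CT8 replicate 2 and CT12 replicate 1 stand far above the other 12 libraries, whereas Saa4 is low in all 6 livers of CT0, CT4 and CT24.

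Saa4 behaved differently from its relatives. It was at 45.0 and 47.3 CPM at CT0, 53.1 and 52.6 at CT4, 67.6 and 97.8 at CT8, 117 and 77.1 at CT12, 163 and 84.0 at CT16, 69.1 and 76.8 at CT20, and 48.1 and 60.5 at CT24. All 8 livers from CT8 to CT20 were above all 6 livers of CT0, CT4 and CT24. The highest library was CT16 replicate 1, at 1.94 times its partner, which was the largest difference within a pair for this gene.

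Hp and Hpx bind hemoglobin and heme released from red cells. Hp, encoding haptoglobin, was at 1074 and 1173 CPM at CT0, 990 and 1145 at CT4, 1236 and 1652 at CT8, 2048 and 1112 at CT12, 1386 and 1099 at CT16, 1245 and 1066 at CT20, and 1204 and 1005 at CT24. Hpx, encoding hemopexin, was at 2280 and 2208 CPM at CT0, 1880 and 2490 at CT4, 2607 and 3105 at CT8, 4581 and 2133 at CT12, 2335 and 2348 at CT16, 2538 and 2338 at CT20, and 2158 and 2448 at CT24. For both genes CT12 replicate 1 was highest and CT8 replicate 2 next, and the other liver of CT12 lay below the median of the 14 libraries, 1159 CPM for Hp and 2343 for Hpx. The highest library exceeded the lowest 2.07-fold for Hp and 2.44-fold for Hpx.

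Orm1 and Orm2 encode the orosomucoids, acidic glycoproteins that carry lipophilic molecules in plasma. Orm1 was at 247 and 227 CPM at CT0, 228 and 294 at CT4, 223 and 411 at CT8, 504 and 292 at CT12, 247 and 276 at CT16, 328 and 335 at CT20, and 237 and 324 at CT24. Orm2, much the lower, was at 6.76 and 4.30 CPM at CT0, 3.35 and 4.80 at CT4, 3.05 and 11.05 at CT8, 22.1 and 4.96 at CT12, 5.44 and 7.39 at CT16, 4.23 and 6.22 at CT20, and 6.00 and 12.2 at CT24. The pair at CT12 differed 4.46-fold and the pair at CT8 3.62-fold for Orm2. Its second highest value, unlike that of Orm1, was in CT24 replicate 2. The ratio of Orm1 to Orm2 counts ran from 22.8, in CT12 replicate 1, to 77.4, in CT20 replicate 1.

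Lcn2 encodes lipocalin 2, which binds bacterial siderophores and is made by inflamed hepatocytes and by neutrophils. It was at 1.64 and 1.70 CPM at CT0, 3.48 and 1.56 at CT4, 2.27 and 8.06 at CT8, 8.49 and 1.20 at CT12, 5.39 and 2.42 at CT16, 1.17 and 1.68 at CT20, and 2.23 and 2.14 at CT24. Pairs differed 7.05-fold at CT12 and 3.54-fold at CT8. CT16 replicate 1 was the next highest. Markers of neutrophils were low in every library: the 10 markers summed to between 0.128 and 1.47 CPM, with 0.934 in CT8 replicate 2 and 1.33 in CT12 replicate 1, 8 of the 10 missed the count minimum, Ly6g was not in the files, and Camp had no read in any library. S100a8 and S100a9, the 2 markers tested, were both higher in replicate 2 of CT8 (median 2.17 on the log2 scale), and 1 of them in replicate 2 of CT12 (median 0.08). These differences rest on few reads: 10 and 20 for S100a8 and 4 and 30 for S100a9 in replicates 1 and 2 of CT8. The pair of CT0 differed more, in the other direction (median -3.40), with 15 and 2 reads for S100a8 and 8 and 0 for S100a9. Their part in the level of Lcn2 was not tested.

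Apcs encodes serum amyloid P, a pentraxin that in mice takes the place that C-reactive protein has in the human response. It was at 20.5 and 18.98 CPM at CT0, 20.5 and 32.3 at CT4, 25.3 and 75.4 at CT8, 45.6 and 24.8 at CT12, 14.7 and 21.4 at CT16, 22.3 and 22.5 at CT20, and 21.5 and 26.8 at CT24. It was the only one of the 10 with its highest value in CT8 replicate 2, at 2.98 times its partner. Itih4, a heavy chain of the inter-alpha-trypsin inhibitor family, was at 571 and 610 CPM at CT0, 634 and 653 at CT4, 762 and 967 at CT8, 1073 and 610 at CT12, 730 and 654 at CT16, 623 and 719 at CT20, and 725 and 633 at CT24. Its 4 transcripts gave nearly the same values, with ranges of the time means from 0.54 to 0.55 on the log2 scale.

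Across the 10 genes, 8 had their highest and second highest values in CT8 replicate 2 and CT12 replicate 1. The exceptions were Saa4 and Orm2. Of the 17299 transcripts tested, whose counts averaged at least 10, 413 (2.39%) had these libraries as their highest, but the libraries were singled out after the values of these genes were seen, so the share is a description. At CT8 all 10 genes were higher in replicate 2, by a median of 1.23 on the log2 scale, and at CT12 all 10 were higher in replicate 1, by a median of 0.99 (replicate 2 minus replicate 1, -0.99). At the other 5 times the median difference lay between -0.08 and 0.28. Over all transcripts tested the median difference was 0.01 at CT8 and 0.01 at CT12, and 8.05% and 14.7% of them differed at least 2-fold.

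**Figure D2:**
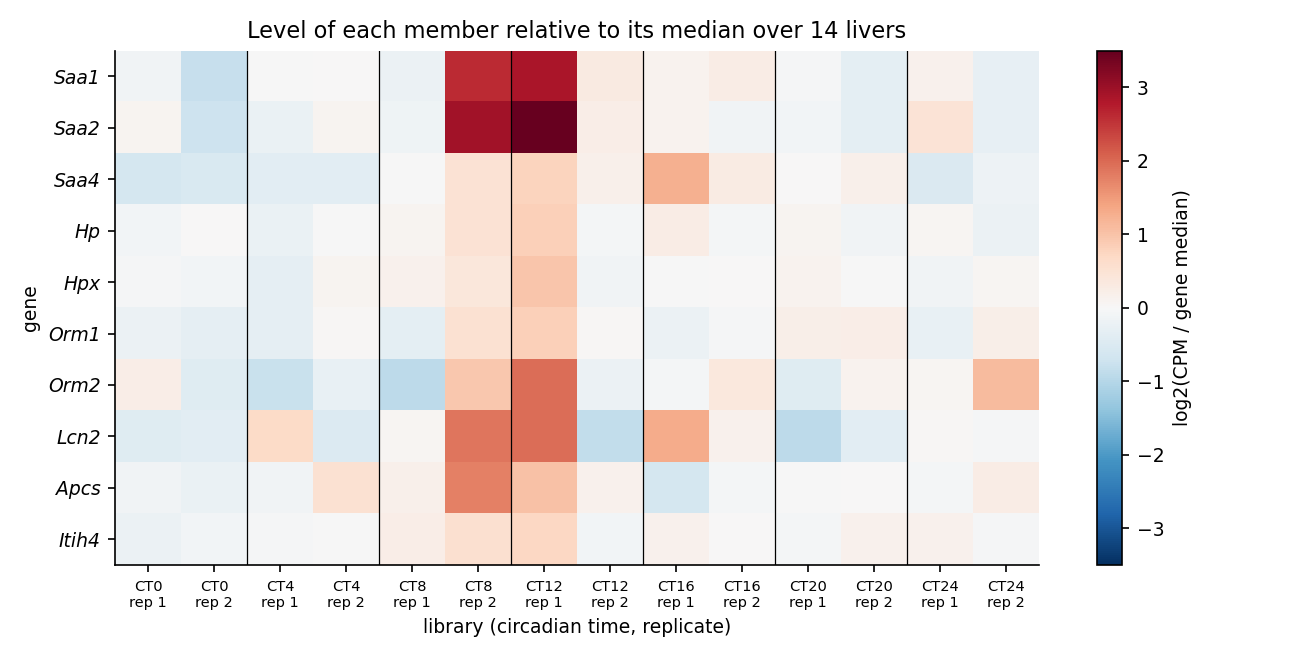
Level of each gene in each of the 14 libraries as log2 of CPM over that gene's median, with replicates of a time point side by side and red for higher values. The columns of CT8 replicate 2 and CT12 replicate 1 are red from Saa1 to Itih4. The difference from the other liver runs from 1.19-fold for Hpx at CT8 to 10.9-fold for Saa2 at CT12.

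The spread between livers of the same time point was then set against the change over time. The SD within pairs, on the log2 scale with 7 degrees of freedom, was 1.28 for Saa2, 1.04 for Saa1, 1.01 for Lcn2, 0.86 for Orm2, 0.54 for Apcs, 0.36 for Orm1, 0.35 for Saa4, 0.33 for Hpx, 0.30 for Hp and 0.25 for Itih4. The median over all transcripts tested was 0.30. Low counts widen this spread, so each gene was also placed among transcripts within 2-fold of its own mean count. There Saa2, Orm2, Lcn2 and Saa1 lay at percentiles 99.7, 99.6, 99.6 and 99.4, Apcs at 98.9, Saa4 and Orm1 at 94.9, Hp at 87.7, Hpx at 83.9 and Itih4 at 77.6.

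The SD of the 7 time means was smaller than the SD within pairs for 9 of the 10 genes. Saa4 was the exception, with 0.49 between times and 0.35 within pairs. Over all transcripts tested the medians had the same order as in the 9 genes, 0.27 between times and 0.30 within pairs. A mean of 2 livers varies less than a single liver, so these 2 SDs are not directly comparable. The share of the total sum of squares that lay between times was 77.5% for Saa4, at percentile 85.9 of all transcripts tested. For the other 9 it ran from 33.6% for Orm2 to 54.3% for Apcs, with 48.2% for Saa1 and 45.4% for Saa2, while the median over all transcripts tested was 54.3%. With 7 times of 2 livers, spread between livers alone puts a sizeable share between times. These shares are therefore not the part due to time. Without CT12 replicate 2 the shares were 70.5% for Saa1, 73.7% for Saa2 and 88.0% for Hpx, with CT12 then represented by 1 liver. Without CT8 replicate 1 they were 74.5%, 67.6% and 40.4%, with CT8 then represented by 1 liver. Leaving out a library also changes the share that spread between livers alone would give.

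**Figure D3:**
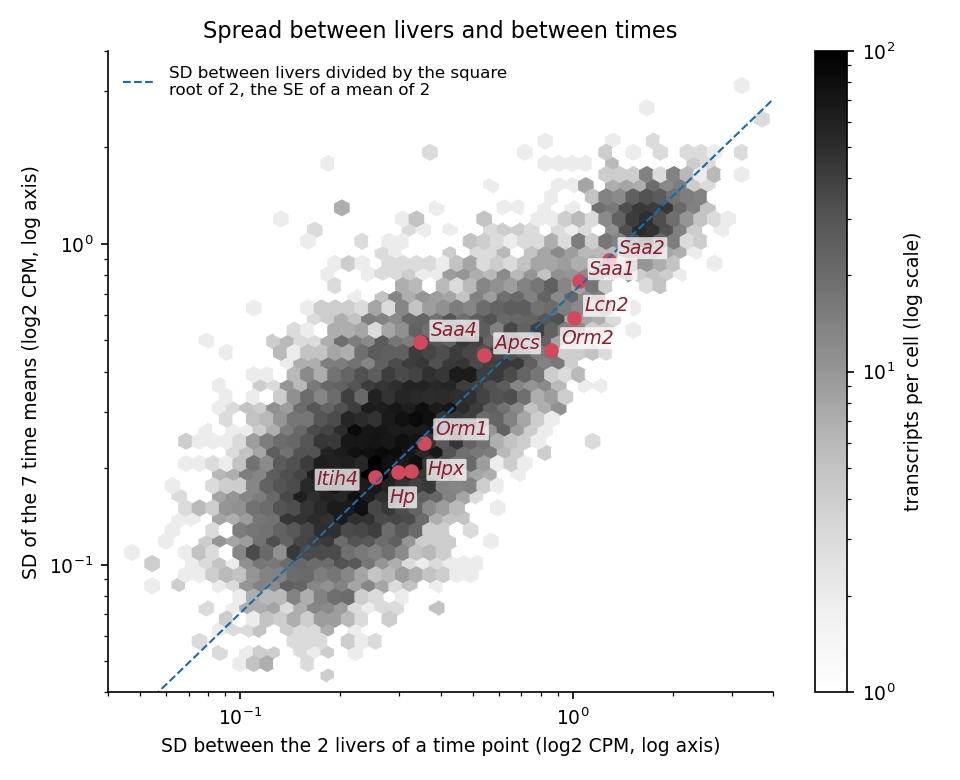
SD of the 7 time means against the SD between the 2 livers of a time point, both in log2 CPM on log axes, for 17299 transcripts (grey cells, darker with more transcripts) and the 10 genes (red points). The dashed line is the SD between livers divided by the square root of 2. Saa4, with an SD of time means of 0.49 and an SD between livers of 0.35, lies well above the line. Apcs, Saa1 and Itih4 lie above it by less, and the other 6 genes lie below it.

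Whether the levels changed over the 24 h was tested with edgeR's quasi-likelihood test, with Benjamini-Hochberg adjustment over all transcripts. With time as a factor of 7 levels, 3 of the 10 genes changed, Saa4 (adjusted p = 0.0105, range of the time means 1.42 on the log2 scale, highest at CT16), Saa2 (adjusted p = 0.0282, range 3.07, highest at CT12) and Saa1 (adjusted p = 0.0410, range 2.51, highest at CT12). Of all 17299 transcripts, 1222 (7.06%) passed this test. The other 7 genes had ranges of 0.55 to 1.84 and adjusted p from 0.101 for Apcs to 0.535 for Hpx.

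With a cosine of 24 h in place of the factor, 4 genes passed: Saa4 (adjusted p = 0.00062, log2 difference from peak to trough 1.29), Saa1 (adjusted p = 0.00555, 2.41), Saa2 (adjusted p = 0.00831, 2.87) and Apcs (adjusted p = 0.0329, 1.19). By this test 1929 transcripts (11.2%) passed. Lcn2 just missed the threshold (adjusted p = 0.0504, 1.74), and the other 5 genes had adjusted p from 0.129 to 0.523. All 10 genes had a fitted peak between 6 h and 18 h, from 8.27 h to 13.9 h, against 48.7% of all transcripts tested. Peaks of genes that did not pass are loosely placed, with a least-squares SE of 4.44 h for Orm2, 2.88 h for Orm1 and 2.26 h for Hpx. A least-squares cosine on log2 CPM put the peak at 13.9 ± 0.77 h (SE) for Saa4, 10.5 ± 1.48 h for Saa1, 10.2 ± 1.72 h for Saa2 and 8.19 ± 1.39 h for Apcs. Fitted to each replicate series alone, the peaks were 14.2 h and 13.0 h for Saa4, but 12.4 h and 9.17 h for Saa1 and 12.5 h and 8.52 h for Saa2, which follow the times of the high libraries, CT12 in replicate 1 and CT8 in replicate 2.

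The calls for Saa1 and Saa2 rested on those libraries. They are the highest of both genes, so weaker calls without them follow from the choice. Without both, CT8 and CT12 have 1 liver each, the lower one for these 2 genes. With CT8 replicate 2 and CT12 replicate 1 left out together, which was chosen after seeing the data, the range over time was 0.74 for Saa1 (adjusted p = 0.534) and 0.50 for Saa2 (adjusted p = 0.875), and the cosine gave adjusted p = 0.331 and 0.897. Saa4 kept its range of 1.41 (adjusted p = 0.0163) and its cosine (adjusted p = 0.00188, 1.23). Of the 10 genes 1, Saa4, then passed each test, against 4.43% of all transcripts for the factor and 7.42% for the cosine. Apcs no longer passed the cosine (adjusted p = 0.413). The peak of Orm2 moved from 12.6 h to 20.5 h and that of Orm1 from 12.6 h to 18.6 h. Fitted peaks of the 10 genes then ran from 6.04 h for Apcs to 20.5 h for Orm2.

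Leaving out single libraries also moved these calls. Without CT12 replicate 2, CT12 rests on the high liver, replicate 1, alone, and the pair that differed most in 6 of the 10 genes is gone. Every fit without a single library leaves 1 liver at its time point. By the factor, Saa1 passed in 4 of 14 such fits and Saa2 in 6, with adjusted p up to 0.0957 and 0.0639, while Saa4 passed in all 14. Without CT12 replicate 2, 7 of the 10 genes passed the factor (Saa1, Saa2, Saa4, Hpx, Orm2, Lcn2 and Apcs) and 7 the cosine (Saa1, Saa2, Saa4, Hp, Lcn2, Apcs and Itih4), against 7.17% and 8.61% of all transcripts in the same fits. By the cosine Saa1, Saa2 and Saa4 passed in all 14 fits. Apcs passed in 8 and lost its call without CT0 replicate 1 or 2, CT8 replicate 2, CT12 replicate 1, CT16 replicate 2 or CT24 replicate 1. Lcn2 passed in 3, without CT8 replicate 1, CT12 replicate 2 or CT16 replicate 1.

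A permutation test on log2 CPM, with 100000 shuffles of the time labels, was run for each gene and each model (20 tests, unadjusted). For the factor this permutation gave p = 0.0476 for Saa4, 0.286 for Saa1, 0.353 for Saa2 and 0.231 to 0.737 for the others. For the cosine the permutation gave p = 0.00061 for Saa4, 0.0211 for Saa1, 0.0459 for Apcs, 0.0696 for Saa2 and 0.0768 or more for the other 6. JTK_CYCLE, a rank test that gives a single extreme liver little weight, called Saa4 (adjusted P = 0.000457) and Saa1 (0.0471) on TMM-scaled CPM but not Saa2 (0.300), and 16.5% of all transcripts. On CPM by total count it called none of the 10, with the lowest adjusted P at 0.122 for Saa4, and 17.6% of all transcripts. DESeq2's likelihood ratio test of the factor called Saa4 and Saa2 but not Saa1 (adjusted p = 0.0737), and 12.8% of all transcripts.

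CT24 was compared with CT0, times one cycle apart. None of the 10 genes differed by edgeR (0% of all transcripts were called), with unadjusted p of 0.220 or more for each, and DESeq2 called none either. Differences of CT24 minus CT0 ran from -0.02 for Hp to 0.72 for Orm2 on the log2 scale. The SE of such a difference, from the SD within pairs, ran from 0.25 for Itih4 to 1.28 for Saa2. It was 0.54 for Apcs and larger for Saa1, Saa2, Lcn2 and Orm2, and with such SEs a difference of 2-fold could go uncalled in these 5 genes. Power was not computed for any of the 10 genes, so a 2-fold difference was not shown to be detectable in the others either. The lack of calls does not show equal levels. Among all transcripts 866 had an unadjusted p under 0.05 and DESeq2 called 2.

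The share of footprints in the 5′UTR was highest in Saa4 and Apcs. In Saa4, 11449 reads over all libraries fell on the 5′UTR against 53093 on the CDS, so that the former held 17.7% of the reads of both. In Apcs 2397 reads lay in the 5′UTR, 9.92%, against a median of 3.88% over 16838 transcripts. Per base the 5′UTR had 0.724 times the density of the CDS in Saa4, 0.446 times in Apcs and 0.363 times in Orm1, against a median of 0.346 over all transcripts. Per base, Apcs and Orm1 thus lay close to that median, at percentiles 57.2 and 51.3, and Saa4 at 73.5. Their 5′UTRs differ in length, with 167 bases in Apcs, 118 in Saa4 and 32 in Orm1. The share was 1.81% in Orm1 and under 1% in the other 7, down to 0.0096% in Hpx. Between libraries the share ran from 11.1% to 23.6% in Saa4 and from 4.80% to 14.6% in Apcs, and the livers of CT16 had 23.6% and 13.1% for Saa4.

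The ratio of 5′UTR to CDS reads did not pass the test over time for any of the 8 genes with enough reads by limma (0% of 7640 transcripts were called). Unadjusted p was 0.897 for Saa4, with a range of 0.60 on the log2 scale, 0.571 for Apcs and 0.406 for Orm1, and 0.105 or more for all 8. Of the 7640 transcripts, 227 had an unadjusted p under 0.05. Lcn2 and Orm2, with 14 reads each in the 5′UTR, were not tested. An ATG upstream of the coding sequence can start a short upstream reading frame, so the 5′UTRs were searched for one. Those within the deposited length are shown with the ATG in capitals. In Saa4 it lies 70 bases before the start codon and opens a frame of 14 codons, in Apcs 135 bases before with 34 codons, and in Hp 145 bases before with 22 codons, each closed inside the 5′UTR.
Saa4, chr7:46732485-46732502, minus strand: ccatcgATGtcacacttc
Apcs, chr1:172895011-172895028, minus strand: cctcacATGgtattactt
Hp, chr8:109579148-109579165, minus strand: acagaaATGgaggaggag
An upstream ATG is thus present in Saa4 and Apcs and also in Hp, in which only 0.046% of the reads lay in the 5′UTR. The other genes have none within the deposited 5′UTR. In RefSeq the 5′UTRs of Saa4 and Orm1 are longer, 177 and 42 bases against 118 and 32 deposited. There Saa4 also has ATGs 173 and 136 bases before the start codon. The frame of the former, of 58 codons, overlaps the start of the coding sequence. Orm1 has an ATG 41 bases before its start codon in RefSeq. Positions of single reads were not analysed here.

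**Figure D4:**
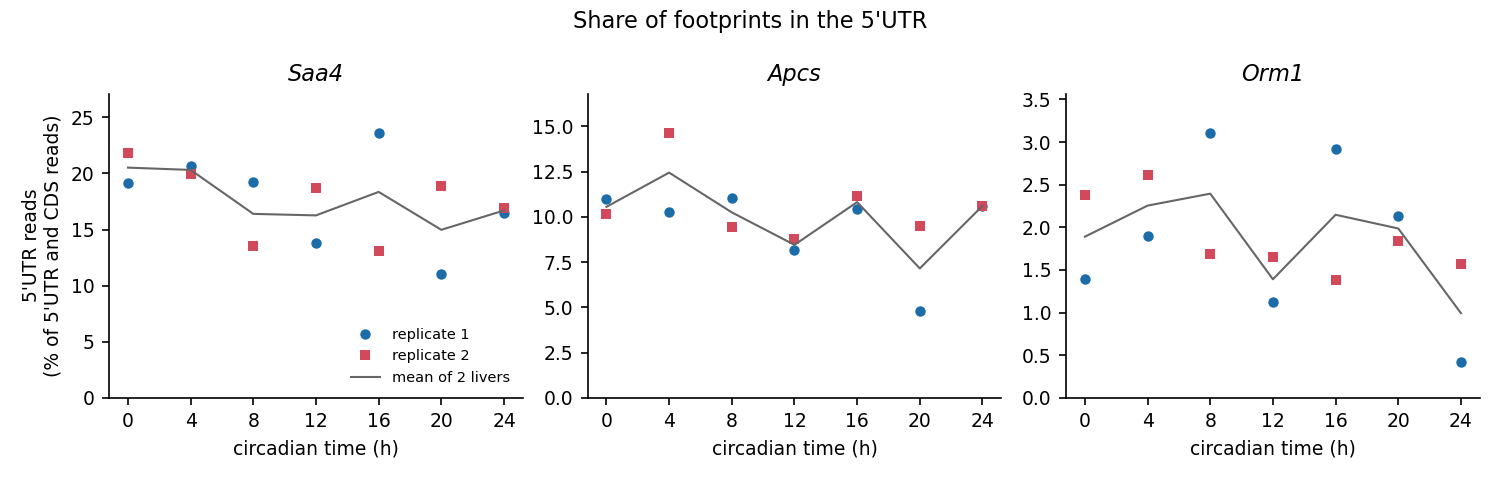
Reads in the 5′UTR as a percentage of 5′UTR and CDS reads for Saa4, Apcs and Orm1 in each library against circadian time in h (circles replicate 1, squares replicate 2, line the mean of 2 livers). Shares run from 11.1% to 23.6% in Saa4 and from 4.80% to 14.6% in Apcs. The 2 livers of CT16 have 23.6% and 13.1% for Saa4.

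Other positive acute phase proteins were counted beside these 10. Of 28 on the list 26 were tested, 6 passed the factor and 13 the cosine (11 with a peak between 6 h and 18 h), against 7.06% and 11.2% of all transcripts. The median range was 0.84, against 0.74 over all. Those with the smallest p were Mt1 and Mt2, the metal-binding metallothioneins, which peaked at 12.4 h and 13.2 h with peak-to-trough differences of 3.93 and 4.03, and Serpina1b, an alpha-1-antitrypsin (17.9 h, 0.81). The most abundant, Serpina3k, complement C3 and Pzp, had median levels of 4630, 3287 and 2989 CPM and did not pass the factor (adjusted p = 0.591, 0.716 and 0.0902), while Pzp passed the cosine (adjusted p = 0.0288), though not without CT8 replicate 2 and CT12 replicate 1 (adjusted p = 0.287). Without those libraries 6 of the 26 passed the factor and 9 the cosine.

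Within the pairs, 25 of these 26 genes were higher in replicate 1 of CT12 (median of replicate 2 minus replicate 1, -0.53), and 18 were higher in replicate 2 of CT8 (median 0.21). The shift at CT12 was not particular to them. Of the 8 hepatocyte markers 2 were higher in replicate 2 of CT12 (median -0.35), and 3 in replicate 2 of CT8 (median -0.0065). The hepatocyte markers summed to 49832 CPM in replicate 1 of CT12 and 38047 in replicate 2. Mt1 and Mt2 went the other way at CT8, where replicate 2 was lower by 1.32 and 1.66 on the log2 scale. Fgl1, a liver-secreted fibrinogen-like protein chosen here after its values were seen, was 2.68-fold and 2.61-fold higher in CT8 replicate 2 and CT12 replicate 1 than in their partners. Negative acute phase proteins, which fall in the plasma during inflammation, had smaller ranges, with a median of 0.44: Alb (albumin) was at 23091 to 36257 CPM, Trf at 4738 to 7743 and Apoa1 at 2847 to 3754, and none of these 3 passed either test. Of the 13 on that list only Serpina6, corticosteroid-binding globulin, passed the factor (adjusted p = 0.0104, peak at 14.9 h), and it also passed the cosine. Their median pair difference (replicate 2 minus replicate 1) was -0.0045 at CT8 and -0.16 at CT12.

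**Figure D5:**
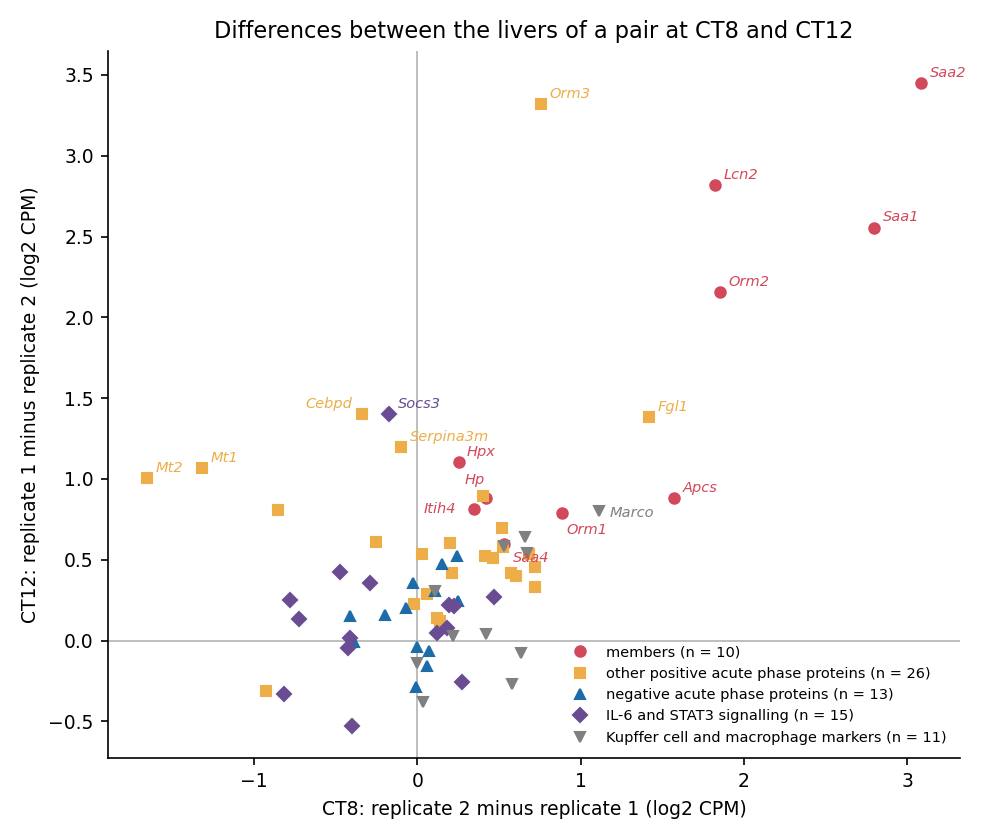
Difference between the 2 livers of a pair in log2 CPM, at CT8 (replicate 2 minus replicate 1, horizontal) and CT12 (replicate 1 minus replicate 2, vertical), for genes of 5 lists. Saa2 (3.09 and 3.45), Saa1 (2.80 and 2.55), Lcn2 (1.82 and 2.82) and Orm2 (1.86 and 2.16) lie at the upper right, and Fgl1 (1.42 and 1.38) next to Apcs. The negative acute phase proteins lie around 0 at CT8 and from -0.29 (Ttr) to 0.53 (Trf) at CT12. These pairs were chosen for display after the values were seen.

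Genes of the signals that induce acute phase proteins were also counted. Of 15 tested genes of interleukin-6 and STAT3 signalling, Il6ra, the receptor's ligand-binding chain, and Lifr, a related receptor, passed the factor (adjusted p = 0.00225 and 0.0289), and 2 passed the cosine. These were Il6ra, with a peak at 12.0 h and a difference of 1.54, and Cebpb, a C/EBP transcription factor, with a peak at 13.2 h and a difference of 1.02 (adjusted p = 0.0143, and 0.0187 without CT8 replicate 2 and CT12 replicate 1). Cebpb did not pass the factor (adjusted p = 0.0655) and is named to complete that count, after its values were seen. Without CT8 replicate 2 and CT12 replicate 1 Il6ra still passed the factor (adjusted p = 0.0184) and Lifr did not (adjusted p = 0.0593). The transcription factors Cebpa and Hnf4a, the most abundant of that list with Lifr, had ranges of 0.25 and 0.51 and did not pass. Of 17 genes of interleukin-1, tumour necrosis factor and NF-kB signalling, only Il1r1 passed the factor (adjusted p = 0.00321) and the cosine (adjusted p = 0.00444, peak at 11.6 h). Without those libraries it did not pass the factor (adjusted p = 0.0703) but passed the cosine (adjusted p = 0.0434). The abundant Il1rap, Chuk and Tnfrsf1a had ranges of 0.23 to 0.54 and did not pass. None of 12 receptors and clearance genes passed either test by edgeR, 2 and 3 had an unadjusted p under 0.05 for factor and cosine, and DESeq2 called 1 and 0. Among these Lrp1, Asgr1 and Asgr2 were the most abundant, with ranges of 0.21 to 0.42.

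Markers of other liver cells were compared within the same pairs. The 11 markers of Kupffer cells and macrophages summed to between 130 and 215 CPM, with 194 in CT8 replicate 2 against 157 in its partner and 188 in CT12 replicate 1 against 169. All 11 were higher in replicate 2 of CT8 (median 0.53 on the log2 scale), and 7 of 11 were higher in replicate 1 of CT12 (median of replicate 2 minus replicate 1, -0.04). They differed in other pairs too: 2 of 11 were higher in replicate 2 of CT0 (median -0.32) and 9 of 11 in replicate 2 of CT16 (median 0.28). The highest sum, 215, was in CT0 replicate 1, where Saa1 stood at 18.8 CPM. None of the 11 passed either test by edgeR, 3 and 2 had an unadjusted p under 0.05 for factor and cosine, and DESeq2 called 1 and 0. Clec4f, Csf1r and Cd5l, the most abundant, had median levels of 42.5, 29.7 and 29.7 CPM and did not pass. Marco, a scavenger receptor of macrophages chosen here after its values were seen, was 2.16-fold and 1.74-fold higher in CT8 replicate 2 and CT12 replicate 1 than in their partners. It had the lowest median level of the 11, 1.44 CPM, and does not stand for the list, of which 4 were higher in replicate 2 of CT12. Endothelial and stellate cell markers summed to between 195 and 310 CPM, with 296 and 271 in the same libraries and 288 and 247 in their partners. Of these 10 markers only Col1a1 passed the factor (adjusted p = 0.0304). All 11 pancreatic acinar markers passed both tests by edgeR, with peaks between 18 h and 6 h, and DESeq2 called 6 and 4. Their sum at CT20 was 6.92 CPM in replicate 1 and 3836 in replicate 2, so the high level at that time rests on 1 liver. None of the 10 genes had its highest value in CT20 replicate 2. The part of these cells in the levels of the 10 genes was not tested.

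The genes whose pattern over the 14 libraries was most like that of 9 of the 10 are given here, found by Pearson's r of log2 CPM among 8156 other genes with a mean of at least 100 counts, as a description. For Saa1 they were Serpina3n, an inducible serine protease inhibitor (r = 0.914), Fgl1 (0.879) and Itih3 (0.868), and for Saa2 the same 3 in another order, led by Itih3 (0.914). Serpina3n was at 112 and 123 CPM in CT8 replicate 2 and CT12 replicate 1 and at 78.0 and 76.2 in their partners. For Hp they were Lrg1, a leucine-rich glycoprotein of plasma (0.849), Itih3 (0.842) and Lats1 (0.825). For Hpx they were the complement regulator Cfi (0.858), Hbs1l (0.847) and Fgl1 (0.835). Orm1 had the anticoagulant Pros1 (0.918), F8 (0.896) and C9 (0.885). Apcs had the complement regulator C4bp (0.921), complement Hc (0.920) and Ifih1 (0.887). Itih4 had Ang (0.912), Itih3 (0.905) and Serpina3n (0.879). Lcn2 had Ppp4r1 (0.851), Arap2 (0.842) and Med13 (0.794), and Orm2 had Cibar1 (0.861), Tmf1 (0.821) and Phkb (0.811). Among the 10 genes r was highest between Saa1 and Saa2 (0.986), which share sequence, and lowest between Saa4 and Apcs (0.210). All these values share the 14 libraries and their scaling.

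Promoter windows from 250 bases before to 50 after the start were at hand for 8 of the 10 genes in RefSeq (GRCm38.p6), without Hp and Orm1. They were searched on both strands for the letters of motifs of factors known in the acute phase and the clock. TTGCNNAA, a C/EBP motif, was present in 6 of 8 (Saa1, Saa2, Saa4, Lcn2, Orm2 and Hpx) and in 10.8% of all 32851 promoters. TTCNNNGAA, a STAT motif, was present in 2 (Apcs and Itih4) and in 8.30% of all. The NF-kB consensus was in 8.46% of all, the D-box letters TTANGTAA in 2.32% and the E-box CACGTG in 7.15%, and their letters were in none of these 8 windows. The C/EBP matches of the 4 genes with the largest differences between livers are shown with the match in capitals. Relative to the transcript start they begin at -182, -183, -216 and -120, and those of Saa1 and Saa2 lie in near-identical sequence. These matches are descriptions and no binding was measured.
Saa1, chr7:46743147-46743170, minus strand: tgctcccaTTGCACAAtgagggag
Saa2, chr7:46751642-46751665, plus strand: tgctcccaTTGCACAAtgagggaa
Lcn2, chr2:32387940-32387963, minus strand: ccttcctgTTGCTCAAccttgcac
Orm2, chr4:63362321-63362344, plus strand: agaacattTTGCGCAAgacatttc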

How the data were processed

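Ribosome profiling libraries of 14 livers were analysed, grouped by the circadian time in the sample titles. For the last pair the title gives CT24, although a label field gives CT00. The authors deposited, for 28167 RefSeq transcripts, read counts without normalization and the length of each region (5′UTR, coding sequence and 3′UTR). The methods name Bowtie 2.1.0.0 for removing rRNA reads, the mm10 genome, SAMtools 0.1.19.0 for keeping exact matches, and use of footprints 26 to 32 nt long, placed by their A site. They name reads with a unique location for the density profiles. How a read shared by several transcripts of a gene was counted is not given in the sources used here. The deposited CDS lengths exceeded those of RefSeq by 1 base per coding exon in all 10 genes.

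Symbols came from RefSeq for 27840 transcripts, and from a second annotation table for others (27956 in all). Counts of the 3 regions were added. Transcripts averaging 10 counts or more (17299) entered edgeR's quasi-likelihood test with TMM scaling (edgeR 4.0.16, R 4.3.3). For 5′UTR reads, limma 3.58.1 was run on log2 of their ratio to CDS reads, 0.5 being added to both. DESeq2 1.42.0 and JTK_CYCLE were alternatives. JTK_CYCLE was written anew in Python 3.11.15 with a period of 24 h, lags every 2 h and equal reference values treated as ties. It is not the study's program, several codings were tried before this one was chosen, and its adjusted P is not adjusted over transcripts. Over all transcripts same-numbered livers did not deviate together, so no block was used. The scripts were tested on simulated data.

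The 10 genes and all gene lists were chosen with earlier results of these data known. Genes of a list are named if they were among the 3 most abundant or the 3 with the smallest p past the factor test, and exceptions are marked. Alternatives were other scalings, count minimums of 1 and 100, CDS counts only, 1 transcript per gene, halved counts of CT16 replicate 2, other pseudocounts, a replicate block and each library left out. Per the labels, the file of CT16 replicate 2 also holds a second sequencing run of that liver, counted here as 1 library. The gene nearest in pattern to Saa4 is not reported here.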

Additional observations from a re-analysis of the deposited data

How the results depend on the processing

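Saa4 passed the time factor and the 24 h cosine under every edgeR and DESeq2 alternative run (26 and 28), with adjusted p up to 0.0407 and 0.0233, and missed the threshold only by JTK_CYCLE on CPM by total count. Saa1 passed the factor in 13 of 26, Saa2 in 17 of 26. The number of the 10 genes past the factor was 1 without CT8 replicate 2 and CT12 replicate 1, chosen after seeing the data, and 1 to 7 with single libraries left out. For the cosine it was 1 without those libraries, 3 to 7 with single libraries left out, 0 by JTK_CYCLE on total CPM and 2 on TMM CPM.

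Over all transcripts, the factor called 2197 with total counts as library sizes, 731 with 1 transcript per gene, 2218 by DESeq2, 763 without both libraries and 852 to 1426 with single libraries left out. The cosine called 1246 with 1 transcript per gene, 1280 without both libraries, 3049 by JTK_CYCLE on total CPM and 1491 to 2070 with single libraries left out. CT24 minus CT0 called 1 with total counts, 1 with total counts without Mup, 1 with a minimum mean of 1 count, 6 with the replicate block, 2 by DESeq2 and 0 to 2 with single libraries left out. The 5′UTR to CDS ratio called 4 with a pseudocount of 0.1 and 0 to 150 with single libraries left out, 150 without CT12 replicate 2 and 70 without CT20 replicate 2. Over all transcripts same-numbered livers did not deviate together (r from -0.06 to 0.16 over 21 pairs of time points), although pancreatic acinar markers had a median above 0 for replicate 2 minus replicate 1 at 6 of 7 times. With the replicate block the factor called 1263 and the cosine 1907 transcripts, and no call among the 10 genes changed.

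For the spread between livers and between times, the median share of the sum of squares between times was 44.4% over the 10 genes, 32.5% with total counts and 42.5% to 72.1% with single libraries left out. Total counts moved the median CT24 minus CT0 difference of all transcripts to -0.30, and with it Saa4 (-0.081), Hpx (-0.28), Orm1 (-0.081), Apcs (-0.031) and Itih4 (-0.10) turned negative, as did Hpx with total counts without Mup (-0.037) and without CT24 replicate 2 (-0.057), and Saa2 without CT24 replicate 1 (-0.013). Hp turned positive without CT0 replicate 2 (0.040) or CT24 replicate 2 (0.0997). With single libraries left out Saa2 ran from -0.013 to 0.887, Hp from -0.160 to 0.0997 and Hpx from -0.057 to 0.125. None of these differences passed the test. The cosine peak moved by over 6 h for Orm2 without CT12 replicate 1 (22.0 h, peak-to-trough 0.13, with a range of 0.13 to 1.14 over single libraries left out) and without both libraries (20.5 h, 0.98), and for Itih4 with total counts (17.4 h, 0.071), none past the threshold. The cause was not tested. Lcn2 and Orm2 rest on the fewest reads of the 10, and each time point on 2 livers.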
